A study of Mus musculus with 2 samples.

Results

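Contractile actin and smooth-muscle-type genes are described here in cultured dental epithelial stem cells of control and Med1 knockout mice. Med1 is a subunit of Mediator, which bridges gene-specific regulators and the polymerase. The 10 genes were taken by symbol: the actins Acta2 and Actg2, the actin-binding proteins Tagln, Cnn1 and Cald1, the tropomyosins Tpm1 and Tpm2, the crosslinker Actn1, and the myosin subunits Myl9 and Myh9. They stand among 16593 genes measured. The group was chosen by gene symbol with the bead signals in view, since Acta2 was selected on its high signal on both arrays, so that its brightness is a description and not a finding. Of the 10 genes, 9 had a probe in the probe-gene table, with 15 probes in all among 25697, and the expression of Myl9 was not analysed here. RNA came from cells of the labial cervical loop of the lower incisor, the site at the base of the growing tooth where enamel-forming cells originate. Control mice were Med1 fl/fl, and knockout mice were Med1 fl/fl with a Krt14 driven Cre, all labelled C57/BL6 and 3 months old. Both genotypes therefore carried the loxP-flanked Med1 allele, and Cre was driven only where keratin 14 is expressed. Each genotype was represented by 1 array with RNA of 3 mice, read here as pooled, after 7 days of primary culture in medium with EGF and FGF.

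Smooth muscle and contractile non-muscle cells build bundles of actin filaments that are crosslinked by alpha-actinin, wrapped by tropomyosin and pulled by myosin II. Acta2 encodes smooth muscle alpha-actin, which is best known from vascular smooth muscle but is also made by myofibroblasts and by myoepithelial cells. Transgelin, calponin and caldesmon bind the actin filament, and many genes of the group are controlled by serum response factor (SRF) and its myocardin-related cofactors through a DNA element named the CArG box.

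The promoters of Acta2 and Tpm1 are shown because these bright genes differed in opposite directions between the arrays. Both sequences are RefSeq promoter windows of GRCm38.p6, 300 bases long, from 250 bases before a transcript start to 50 after it, 5′ to 3′ on the minus strand, at chr19:34255324-34255623 for Acta2 and chr9:67049164-67049463 for Tpm1. Capitals mark 10-base matches to the CArG box in which 1 base of the A/T core may be another base.
Acta2: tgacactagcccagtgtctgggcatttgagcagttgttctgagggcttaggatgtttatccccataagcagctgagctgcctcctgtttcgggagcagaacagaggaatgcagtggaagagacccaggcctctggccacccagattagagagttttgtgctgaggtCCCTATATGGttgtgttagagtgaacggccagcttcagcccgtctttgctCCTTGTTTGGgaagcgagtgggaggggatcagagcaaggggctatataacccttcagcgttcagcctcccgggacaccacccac
Tpm1: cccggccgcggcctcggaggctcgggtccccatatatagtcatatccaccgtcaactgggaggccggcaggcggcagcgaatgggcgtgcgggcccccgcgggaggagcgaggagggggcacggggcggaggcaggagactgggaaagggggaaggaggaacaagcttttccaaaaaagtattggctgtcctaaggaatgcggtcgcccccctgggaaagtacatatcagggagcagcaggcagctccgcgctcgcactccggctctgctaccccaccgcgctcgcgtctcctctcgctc
The Acta2 window held 2 such matches, CCCTATATGG beginning 84 bases and CCTTGTTTGG beginning 34 bases before the start, each with 1 core base other than A or T. The Tpm1 window held 0. The element reads the same on both strands, so a single search covered both, and the matches did not overlap. Of all 32851 promoter windows, 9.98% held at least 1 such match and 1.63% held an exact one. Windows were found for 8 of the 10 genes, 9 windows in all, but not for Tagln or Actg2. Only the windows of Acta2 and Myl9 held a match. Those of Tpm2 and Myh9, also higher on the knockout array, held none, like those of the lower genes Tpm1, Cald1 and Actn1. A link between matches and direction was not tested. A match describes letters in these windows and is not a measured binding site.

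All values are single measurements, without replicate error, and no test between genotypes was possible. At a detection p-value under 0.01 against the negative control beads, 43.1% of probes were detected in the control and 42.6% in the knockout. Med1 had 2 detected probes, lower on the knockout array by 1.49 and 0.28 on the log2 scale. Both were still detected on the knockout array, with signals of 412 and 251. Whether these probes lie in the deleted exons is not known here. Of 15 epithelial markers listed, 12 had a probe, and all 12 were detected on both arrays. Over 1830 genes for which more than 1 probe was detected on both arrays, the between-probe standard deviation of the log2 difference was 0.31. It is a spread between probes on the same pair of RNA samples, and holds no measure of variation between mice or repeated arrays. Values below are normalized log2 intensities (neqc in limma), and differences are knockout minus control.

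The contractile genes showed no common direction. Of the 9 with a probe, 6 were detected on both arrays, Tagln on the knockout array only, and Actg2 and Cnn1 on neither. Among the 7 detected genes, 1 (Tagln) passed 2-fold upward in the knockout and 0 passed it downward. The same limits were passed by 8.35% (upward) and 6.52% (downward) of all 8217 detected genes. With a lower bound in place of the Tagln difference, 0 passed upward, against 6.86% of all genes, and 0 downward, against 4.98%. The median difference was 0.05 over the 7 genes and -0.06 over all detected genes. Of the 6 genes detected on both arrays, 3 had positive differences (Acta2, Tpm2 and Myh9) and 3 negative ones (Tpm1, Cald1 and Actn1), with a median of -0.17.

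**Figure D1:**
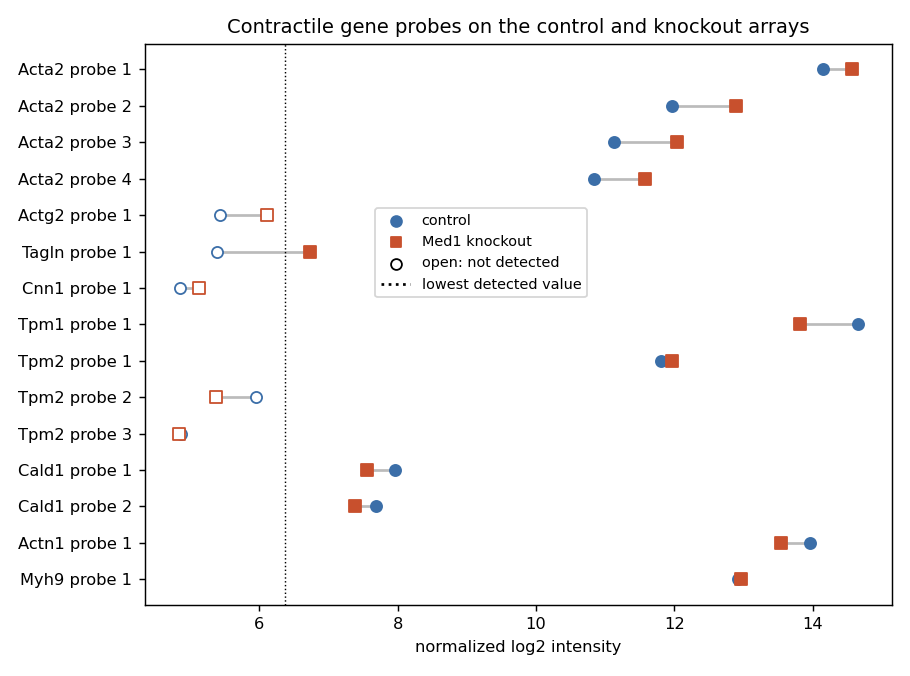
Normalized log2 intensity (horizontal axis) of each of the 15 probes of the contractile genes on the control array (blue circles) and the Med1 knockout array (red squares), numbered by brightness within a gene. Open symbols are not detected, and the dotted line is the lowest detected value of the knockout array (6.37). The 4 Acta2 probes lie to the right on the knockout array, and the Tpm1 probe lies to the left.

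Acta2 was higher on the knockout array by all 4 of its probes. Its brightest probe had a mean bead signal of 17546 in the control and 24785 in the knockout, or 14.15 and 14.57 on the log2 scale, a difference of 0.42. This probe was brighter than 99.5% of control probes and 99.7% of knockout probes, and its signal stayed below the brightest probe of either array (42391 and 44382). The second probe read 4157 and 7950, a difference of 0.92 or 1.89-fold. The third read 2434 and 4403 (0.92), and the fourth 2021 and 3188 (0.74). The 4 differences averaged 0.75, with a standard deviation of 0.23 between probes, and none reached 2-fold. The brightest probe gave the smallest of the 4 differences. All probes read the same pair of RNA samples, so their agreement checks the probes and not the genotype effect. In RNA of many cells, more cells of a type and more RNA per cell cannot be told apart.

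Actg2, which encodes the gamma-actin of visceral smooth muscle, was not detected. Its single probe had a signal of 196 in the control and 227 in the knockout, with detection p-values of 0.12 and 0.024. Both signals lay near the array medians of 205 and 207. The proteins of Acta2 and Actg2 are near-identical, and probes of such genes can share signal, which was not checked because no probe sequences were used here.

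Among the actin-binding regulators, Tagln was near the detection limit and Cnn1 below it. Tagln encodes transgelin (SM22 alpha), an early marker of smooth muscle. Its probe had a signal of 194 on the control array, with a detection p-value of 0.12, and 263 on the knockout array, with a detection p-value of 0.0013. The normalized values were 5.39 and 6.72. The knockout value was at least 1.34-fold higher than the lowest detected value of the control array (6.30), and the measured difference of 1.33 shrank to 0.43 without background correction. Cnn1, which encodes the smooth muscle calponin, read 166 and 185 and was detected on neither array (detection p-values of 0.52 and 0.23). Cald1 encodes caldesmon, which holds actin away from myosin and exists in smooth muscle and non-muscle forms. Its 2 probes read 415 against 340 and 372 against 321, and were lower on the knockout array by 0.40 and 0.31. The second of these equals the between-probe standard deviation after rounding.

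The tropomyosins differed from each other. Tpm1, which encodes alpha-tropomyosin, had a signal of 25203 in the control and 15278 in the knockout. Its log2 values were 14.66 and 13.81, a difference of -0.85 or 1.80-fold lower, the largest negative difference among the contractile genes. Tpm1 has many spliced forms, and its single probe reads only those that hold its target. Tpm2, which encodes beta-tropomyosin, read 3741 and 4166 by its brightest probe, a difference of 0.17 that is within the between-probe standard deviation. The other 2 Tpm2 probes were detected on neither array, with signals of 219 and 196 for the brighter and 166 and 168 for the dimmer.

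The crosslinker and the motor differed by less than 1.5-fold. Actn1 encodes alpha-actinin-1, which ties actin filaments together at adhesions and along stress fibres. It read 15274 in the control and 12283 in the knockout, 13.96 and 13.55 on the log2 scale, a difference of -0.41. Myh9 encodes the heavy chain of non-muscle myosin IIA, the motor that pulls on these bundles. It read 7644 and 8485, a difference of 0.05, the smallest of the detected contractile genes.

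**Figure D2:**
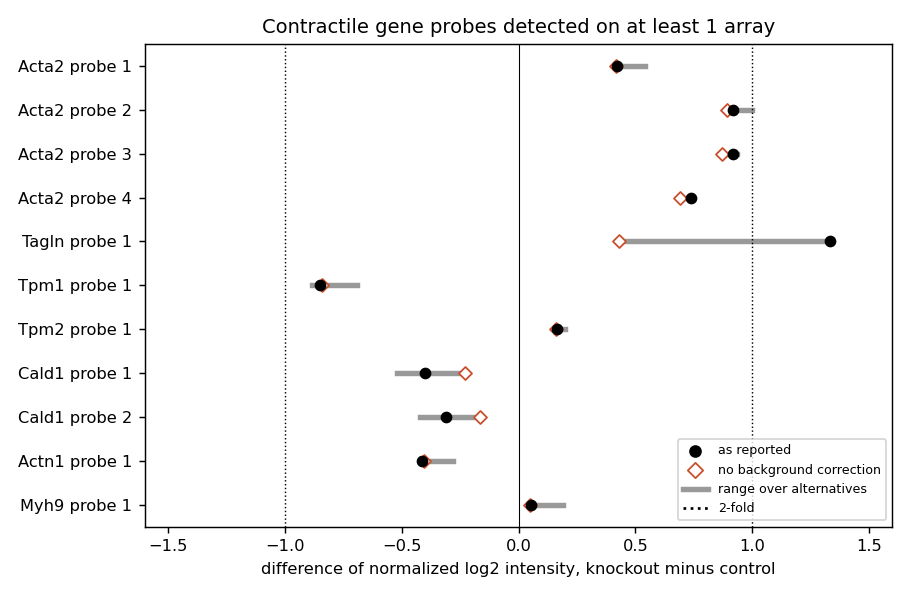
Difference of normalized log2 intensity, knockout minus control (horizontal axis), for the 11 probes of contractile genes detected on at least 1 array. Black points are the values as reported, open diamonds those without background correction, and grey bars the range over the processing alternatives. Dotted lines mark 2-fold. The sign of each probe was the same throughout, and only Tagln crossed 2-fold.

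Bright genes, among them Acta2, Tpm1 and Actn1, varied less between the arrays than all genes detected on both arrays. Over the 390 genes detected on both arrays with a mean log2 intensity of at least 13, a limit chosen after the values were seen, the median size of the difference was 0.17, against 0.32 over all 7272 genes detected on both. In those 390 genes, 5.38% passed 1.5-fold upward and 4.87% downward, Tpm1 among the latter. Acta2 did not reach 1.5-fold by its brightest probe, and did so by its other 3 probes. Of the 6 contractile genes detected on both arrays, 0 were at least 1.5-fold higher and 1 lower, against 11.7% and 13.3% of all genes detected on both.

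**Figure D3:**
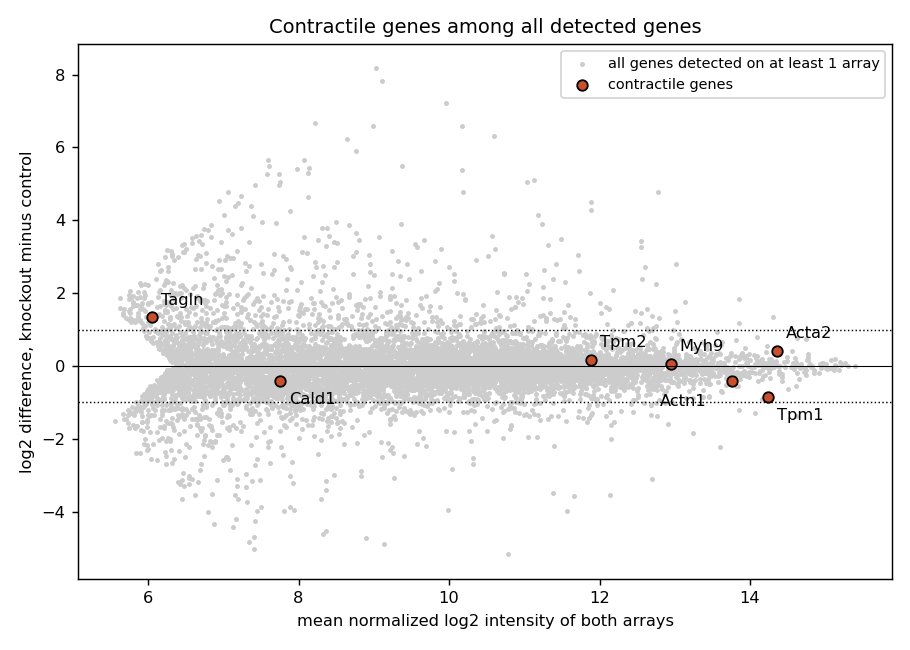
Difference of normalized log2 intensity, knockout minus control (vertical axis), against the mean of both arrays (horizontal axis) for the 8217 genes detected on at least 1 array (grey) and the 7 detected contractile genes (red, named). Each gene is shown by its brightest probe and dotted lines mark 2-fold. Acta2 and Tpm1 lie at the bright end on opposite sides of 0, and Tagln lies at the dim end.

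The closest relatives of these genes in the same protein families mostly differed little. Of 18 relatives listed, 15 had a probe, 10 were detected, 1 passed 2-fold upward and 0 downward, and the median difference was 0.15. The same limits were passed by 8.35% (upward) and 6.52% (downward) of all detected genes. The relative past 2-fold was Acta1, the actin of skeletal muscle, seen only in the knockout (signals of 190 and 249, a lower bound of 1.16-fold). Actb, the cytoplasmic beta-actin, read 14839 and 18156 by its brightest probe (0.16). The next Actb probes were at 0.36 and 0.45, but its 2 dimmest probes, detected on the control array only, read 448 against 230 and 415 against 205, differences of -1.97 and -2.36. The single Actg1 probe was not detected (211 and 183), nor were the cardiac actin Actc1, the neuronal transgelin Tagln3, or the sarcomeric actinins Actn2 and Actn3.

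The myosin light chains and the second non-muscle heavy chain were higher or level on the knockout array. Myl12a, which encodes a regulatory light chain of non-muscle myosin II, read 669 and 1016 (0.83). Its neighbour in function Myl12b was at 0.00 by its brightest probe and at 0.64 and 0.91 by the other 2. The essential light chain Myl6 read 13946 and 18086 (0.24), and the heavy chain Myh10 of non-muscle myosin IIB read 597 and 845 (0.72). The remaining relatives were close to 0: Cnn2 (-0.13) and Cnn3 (-0.11), the calponins outside smooth muscle, Tpm3 (0.13), and Actn4 (0.15), the other non-muscle alpha-actinin. Single probes of Cnn2, Tpm3 and Actn4 that were detected on both arrays ranged from -0.13 to 0.19.

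Genes that mark differentiated smooth muscle were largely undetected on both arrays. Of 16 listed, 14 had a probe and 12 of these were detected on neither array, among them Myh11, the smooth muscle myosin heavy chain (154 and 153), Des, the muscle intermediate filament desmin (174 and 190), Lmod1, an actin nucleator of smooth muscle (177 and 210), and Mylk, the myosin light chain kinase (195 and 200). For comparison, 8217 of all 16593 genes measured were detected on at least 1 array. Smtn, encoding smoothelin, was detected at 2622 and 2463 by its brightest probe (-0.05) and at 2118 and 1906 by the next (-0.12). Hspb6, a small heat shock protein of muscle, was detected at 1199 and 1423 (0.35). Myh11, Cnn1, Des and the contractile gene Actg2 were thus undetected on both arrays, while Smtn and Hspb6 were detected on both. Of 15 markers of striated muscle listed, 13 had a probe and 2 were detected, Acta1 and the troponin Tnni2 (298 and 425, a difference of 1.01 that was 0.56 without background correction).

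The detected regulators linked to contractile genes, which include cofactors, differed by less than 2-fold. Of 14 listed, 13 had a probe and 8 were detected, with a median of 0.05. Srf read 1609 and 1959 (0.37) by its brightest probe, and its second was not detected. The cofactors Mrtfa, Mrtfb and Myocd were not detected on either array. The largest differences were those of Tead2 (-0.91), Elk4, a partner of Srf detected on the control array only (at least 1.01-fold lower), and Tead4 (0.80, with its other 2 probes undetected). The coactivator Yap1 was at 0.07.

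Cytoskeletal genes listed as targets of these regulators went in both directions. Of 19 listed, 16 had a probe and 13 were detected, of which 2 passed 2-fold upward and 2 downward (median 0.00). Over all 8217 detected genes, 8.35% passed upward and 6.52% downward. Ccn2, which encodes connective tissue growth factor, read 25965 in the control and 5915 in the knockout, 4.64-fold lower. Thbs1, which encodes thrombospondin-1, read 1398 and 428, 4.36-fold lower. Fhl1, a LIM protein of muscle and adhesion sites, read 613 and 2696, 5.78-fold higher, with its second probe at 2.83. The intermediate filament gene Vim was also higher (1.21). The adhesion proteins that anchor stress fibres were close to level, with Vcl (vinculin) at 0.20 and Zyx (zyxin) at 0.00. Ccn1 was at 0.50 and Ankrd1 at -0.02.

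TGF-beta, a known inducer of Acta2 in mesenchymal cells, was represented by 12 detected genes of 14 listed. Of these, 1 passed 2-fold upward and 2 downward (median -0.33), against 8.35% and 6.52% of all detected genes. The ligands split. Tgfb2 read 280 and 518 (1.62, or 0.93 without background correction), while Tgfb3 read 1102 and 411 (-1.81) and Tgfb1 read 1198 and 689 (-0.89). Ltbp1, which holds latent TGF-beta in the matrix, was 2.67-fold lower by its only detected probe. The receptors Tgfbr1 (-0.20) and Tgfbr2 (-0.49) were under 2-fold.

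**Figure D4:**
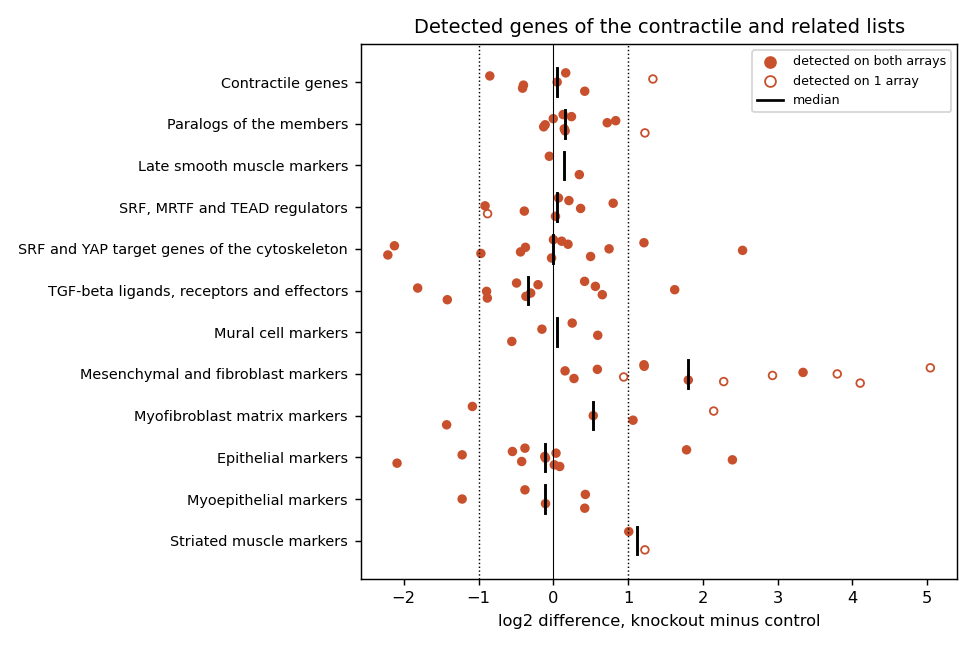
Difference of normalized log2 intensity, knockout minus control (horizontal axis), for each detected gene of the contractile genes and the related lists (rows). Filled points were detected on both arrays, open points on 1 array, black bars are medians and dotted lines mark 2-fold. The contractile genes centre near 0 (0.05), and the mesenchymal markers lie to the right (1.81, or 0.90 over the 6 detected on both arrays). Some genes belong to several lists.

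Markers of other cells that make Acta2 gave a mixed picture. Mesenchymal and fibroblast markers were higher on the knockout array: 18 of 20 had a probe, 13 were detected, 9 passed 2-fold upward and 0 downward, and the median was 1.81, or 1.09 without background correction. Of the 13, 7 were detected on the knockout array only and entered through the array where they are high. Over the 6 detected on both arrays, 3 passed 2-fold upward and 0 downward, and the median was 0.90. Among all 7272 genes detected on both arrays, 402 passed 2-fold upward and 299 downward. Of all 8217 genes detected on at least 1 array, 8.35% passed upward and 6.52% downward. Without background correction, the matrix protease gene Mmp2, detected on both arrays, differed by 2.69 (log2), and Thy1, Col1a1 and Lum, seen only in the knockout, by 2.89, 2.14 and 1.90. The summed signal of the measured list, not background-subtracted, was 15852 in the control and 29347 in the knockout. Sparc alone gave 10084 and 16288 of these sums. Pdgfra, Pdgfrb, Col1a2 and Prrx1 were detected on neither array. The part of the mesenchymal markers in the Acta2 difference was not tested.

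Myofibroblast matrix genes split. Of 11 listed, 10 had a probe and 5 were detected, with 2 past 2-fold upward and 2 downward and a median of 0.53. Of all detected genes, 8.35% passed upward and 6.52% downward. Without background correction 1 gene of this list passed in each direction. The summed signals were 15196 and 12244, with most of the control sum from Tnc. Loxl2, a lysyl oxidase-like enzyme of collagen crosslinking, was seen only in the knockout, with signals of 236 and 495 and a difference of 1.09 without background correction. Adam12, a metalloproteinase, was 2.69-fold lower, and Tnc, the matrix protein tenascin-C, was 2.12-fold lower, with all 6 of its probes below 0. The defining markers Postn and Fap were detected on neither array. Of 8 mural cell markers, 4 were detected and none differed by 2-fold (median 0.05, summed signals 9087 and 8865, mostly from Mcam). They were Cspg4 (0.59), Anpep (-0.55), Notch3 (0.25) and Mcam (-0.15), and the pericyte markers Rgs5, Pdgfrb, Abcc9 and Kcnj8 were detected on neither array.

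Of 10 myoepithelial markers, which include Acta2, Cnn1 and Myl9 themselves, 8 had a probe and 5 were detected. Of these 5, 0 passed 2-fold upward and 1 downward, with a median of -0.10. The summed signals were 87345 and 79591, mostly from Krt14, Krt5 and Acta2. Krt5, the basal keratin, was 2.33-fold lower, Trp63, the basal transcription factor p63, was at -0.38 and Nrg1 was at 0.43. Among the 12 detected epithelial markers, 2 passed 2-fold upward and 2 downward (median -0.11). Beside both lists, the shares over all detected genes were 8.35% upward and 6.52% downward. The adhesion genes Jup (2.40, or 1.41 without background correction) and Perp (1.78, or 0.93) were higher, the integrin Itga6 was lower (-2.09), and Krt14 was at -0.10.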

How the data were processed

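Gene expression was measured on 2 Illumina bead arrays, 1 control and 1 Med1 knockout, both on 1 chip at different positions. Per the file headers, the authors deposited for each probe an average bead signal intensity on a linear scale, not background-subtracted (lowest 133 and 139), and a detection p-value. Per the submitters' processing notes, GenomeStudio 2011.1 was used. A further deposited table gives intensity values that share 1 distribution across both arrays, made in a way not stated here.

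Background correction used the normexp model of limma 3.58.1 (R 4.3.3), which took the negative control moments from the detection p-values. After an offset of 16, log2 values were quantile normalized. A run on simulated data was also made, but its outcome is not reported here. That run is therefore no evidence that dim signals, such as those of Tagln, were corrected well. The platform annotation named 1 gene for 23978 probes and none for 1719, and symbols were updated through the mouse gene table for 23962. The probe with the highest mean of both arrays stood for its gene. Where a gene was detected on 1 array, a lower bound set its bright value against the dim one or, if higher, the lowest detected value of the dim array (6.30 control, 6.37 knockout), a bound only for background-corrected values. Genes were counted at 2-fold, a rule of size. With 1 array per genotype there is no test, replicate standard deviation or p-value between genotypes, and the number of arrays limits the precision.

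Named were all contractile genes with every probe, their measured relatives, Med1, and of each list the 3 largest differences and its defining markers. Vim, Vcl, Zyx, Ccn1, Ankrd1, Yap1, Tgfb1, Tgfbr1, Tgfbr2, Krt14, Trp63, Mcam and Mmp2 were added after their values were seen. One further gene list is not reported here. The members and lists were chosen with earlier results of these data known. Alternatives changed the background correction, offset, scaling, source of values, detection filter, probe choice, threshold and use of lower bounds.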

Additional observations from a re-analysis of the deposited data

How the results depend on the processing

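No paired analysis was possible because there is 1 array per genotype, and no array could be left out. Tagln was the only contractile gene past 2-fold, and the count of 1 became 0 without background correction, with an offset of 50 (in neqc, or in normexp on the signal alone, which changed the model and the offset together), with the deposited values, with detection on both arrays, at 3-fold and with lower bounds. The count of 0 lower became 1 (Tpm1) at 1.5-fold. The median of the contractile genes ranged from -0.17 (detection on both arrays) to 0.19 (median scaling). Acta2 ranged from 0.42 to 0.75, Tpm1 from -0.88 to -0.69, Actn1 from -0.41 to -0.28, Cald1 from -0.52 to -0.23, Tpm2 from 0.16 to 0.20, Myh9 from 0.05 to 0.19 and Tagln from 0.42 to 1.33, and none of these changed sign. Over all genes, 686 were higher and 536 lower. These counts were 341 and 207 without background correction, 344 and 211 with the deposited values, 402 and 299 with detection on both arrays, 1203 and 1344 at 1.5-fold and 365 and 204 at 3-fold, and 325 were lower with normexp on the signal alone and an offset of 50, against 390 with that offset in neqc. The median of all detected genes was -0.11 without normalization between arrays and -0.06 as reported. The median of the myofibroblast list turned to -0.27 with detection on both arrays (4 genes), and that of striated muscle to -0.050 at a detection p-value under 0.05. Dim probes limit what can be said of Tagln, Actg2 and Cnn1.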

Other observations

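Probes of one gene did not always give the same size of difference, as the 4 Acta2 probes show. Among the relatives, the brightest Myl12b probe was at 0.00 and the other 2 at 0.64 and 0.91, and the Actb probes ranged from -2.36 to 0.45. Over the 478 genes with at least 2 probes at a log2 intensity of 10 or more on both arrays, a count made after the data were seen, the brightest probe differed less between the arrays than the mean of the others in 272 (56.9%). The median size of the difference was 0.22 for the brightest probe and 0.25 for the mean of the others.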
